A study of Homo sapiens with 12 samples.

Results

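The miR-548 family comprised every miRNA name that began with hsa-miR-548, whatever its letter or arm, in tables of mature miRNA counts. This gave 81 of 2656 names, or 3.05%. The counts came from AC16 cells, an established human line with cardiomyocyte features made by fusing ventricular heart cells with a fibroblast line, and from exosomes, small secreted vesicles, isolated from the line. Each of 4 groups had 3 libraries. They were the Con and the Ang samples of whole cells, and the Con and the Ang samples of exosomes. The Ang files carry AngII in their headers. The name is not spelled out there, and no dose, time or genotype is given in the sources used here. The study's stated interest was in how exosomal miRNAs change when cardiomyocytes are hypertrophic. No source says whether numbered replicates were separate cultures, so the spread behind each p-value may be technical.

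A miRNA is cut from a hairpin by Drosha and Dicer, and 1 arm of the hairpin is loaded into an Argonaute protein, which finds target mRNAs mainly through the seed, bases 2 to 8 of the miRNA. Hairpins of the miR-548 family are described as derived from MADE1, a short palindromic transposable element of the mariner class whose transcribed copies fold on themselves. Copies lie throughout primate genomes, many in introns. This origin is background, since transposon annotation was not analysed here. GENCODE release 29 annotated 72 MIR548 hairpins on 22 chromosomes of GRCh38. Of these, 36 lay in introns of protein-coding genes on the same strand, 32 had no host gene on their strand, and 0 overlapped a host exon.

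RefSeq gave mature sequences, on GRCh38.p14, for 55 of the 81 names. The first set shows miR-548as-5p, the leading member in cells, above the 4 members nearest to it among those 55 and its own opposite arm. Sequences are written 5′ to 3′ with the seed in capitals.
miR-548as-5p: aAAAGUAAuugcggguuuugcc
miR-548ap-5p: aAAAGUAAuugcggucuuu
miR-548ar-5p: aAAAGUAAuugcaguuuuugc
miR-548w: aAAAGUAAcugcgguuuuugccu
miR-548l: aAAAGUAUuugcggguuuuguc
miR-548as-3p: uAAAACCCacaauuauguuugu
Counted from the 5′ end of miR-548as-5p, miR-548ap-5p carries G15U and U16C, miR-548ar-5p carries G13A and G15U, miR-548w carries U9C and G15U, and miR-548l carries A8U and C21U. The hairpin MIR548AS lies on the plus strand at chr13:92490163-92490220, in an intron of GPC5, which encodes a cell-surface heparan sulfate proteoglycan.

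The second set shows the other members on which the comparisons turn, with miR-570-5p, a name outside the family whose mature sequence is the same as that of miR-548ai.
miR-548ai: aAAGGUAAuugcaguuuuuccc
miR-570-5p: aAAGGUAAuugcaguuuuuccc
miR-548an: aAAAGGCAuugugguuuuug
miR-548ac: cAAAAACCggcaauuacuuuug
miR-548bc: aAAAACUGugauuacuuuugc
miR-548m: cAAAGGUAuuugugguuuuug
The hairpin of miR-548ai lies at chr6:99124609-99124696 on the plus strand, with no host gene on that strand. That of miR-548an lies at chrX:106639814-106639896 in an intron of CXorf57, and that of miR-548ac at chr1:116560024-116560111 in an intron of CD58, which encodes a cell adhesion ligand. The hairpin of miR-548m lies at chrX:95063141-95063226 with no host on its strand. The mature miR-548bc lies at chr17:39297457-39297477. The sequence of miR-548aw was not in the table; its hairpin lies at chr9:132945707-132945771 in an intron of GFI1B, which encodes a transcription factor of blood cell precursors.

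The members, chosen by name, differed in composition from the other names. Whether this is independent of how the names were given was not tested. Median GC content was 33.3% over the 55 members with a sequence, against 52.2% over 2312 other names. The 6 letters AAAGUA occurred in 20 members, or 36.4%, and in 0.433% of the other names. The letters UACUUU, their reverse complement, occurred in 18 members, or 32.7%, and in 0.519% of the others. Both were searched on the mature strand as written. No member held both, so the family split into AAAGUA names such as miR-548as-5p, UACUUU names such as miR-548ac and miR-548bc, and 17 names with neither, among them miR-548ai and miR-548an.

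The 55 sequences held 29 different seeds, of which 21 belonged to 1 member each. The largest seed group, AAAGUAA, had 11 members, AAAAACU had 7 and GCAAAAG had 4. Within GCAAAAG, miR-548aj-5p, miR-548g-5p and miR-548x-5p shared 1 mature sequence and had 11, 11 and 14 counts over the 6 cell libraries and 0 in exosomes. Reads of these 3 names cannot be told apart by sequence, and how reads with several matches were assigned is not given in the sources used here.

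Levels are counts of unique molecular identifiers (UMIs) in CPM, scaled by each library's total. Totals ran from 413513 to 528844 UMIs in cells and from 697049 to 1029883 in exosomes. The level of 3 counts, used as a floor, was 2.91 to 7.25 CPM by library, and floors and intervals cover counting error only. Cell RNA was extracted with one kit and exosome RNA with another, so compartment and kit cannot be told apart in any exosome against cell comparison. The 7 muscle miRNAs used as markers summed to 344 to 376 CPM in cells Con and 285 to 326 in cells Ang. Heart-enriched miR-208a-3p made up most of this at 152 to 252 CPM, while miR-1-3p and miR-133a-3p, which mark heart and skeletal muscle, stood at 4.08 to 17.0 and 8.15 to 27.3 CPM. Sums of blood cell and endothelial markers in cells Ang 2 were 6592 and 4665 CPM, against at most 2306 and 674 in the other cell libraries. Those of exosomes Con 1 were 532 and 130 CPM, against at least 1175 and 434 in the other exosomes Con libraries. The 2 liver markers summed to 213 CPM in cells Ang 2, against at most 33.1 in the other cell libraries. In exosomes their sum was 30.1 CPM in Con 1, at least 146 in the other Con libraries and 33.0 to 59.5 in Ang.

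In cells a single name, miR-548as-5p, carried nearly as many counts as all the rest of the family. The family's share of UMIs was 0.461, 0.478 and 0.494% in the Con libraries and 0.543, 0.508 and 0.544% in the Ang libraries, in the order of their numbers. miR-548as-5p made up 47.3 to 51.8% of the family's counts in these 6 libraries. It averaged 2508 CPM over the cell libraries. Its 4 nearest neighbours among the 55 members with a sequence averaged 2.03 to 6.51 CPM. Of the cell counts of the 11 members known here to hold the AAAGUAA seed, 97.2% were those of miR-548as-5p, and the other 10 averaged between 2.03 and 15.4 CPM. Members with no sequence in the table, such as miR-548a-5p at 111 CPM, could not be placed in a seed group. Names that differ from it by 2 bases, as the first set of sequences shows, thus had counts far below its own.

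**Figure D1:**
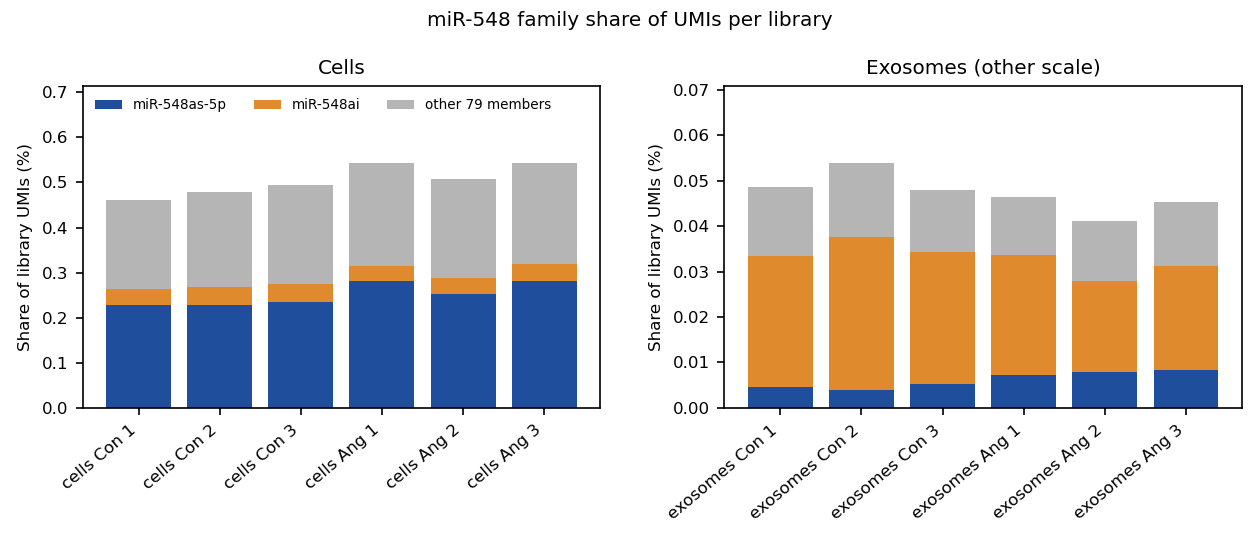
Share of library UMIs (%, y axis, on different scales in the 2 panels) held by the miR-548 family in each of the 12 libraries (x axis), split into miR-548as-5p, miR-548ai and the other 79 members. Cell bars stand at 0.461 to 0.544% and are led by miR-548as-5p, whereas exosome bars stand at 0.0413 to 0.0540% and are led by miR-548ai.

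After miR-548as-5p came miR-548ai at a mean of 374.2 CPM over the 6 cell libraries, then miR-548ac at 266, miR-548h-3p at 263 and miR-548z at 233. miR-548ac read 227, 283 and 236 CPM in Con and 300, 249 and 302 in Ang. miR-548h-3p read 227, 267 and 281 CPM in Con and 271, 256 and 275 in Ang. The ranges of these 2 members overlapped, and their order is not separated by the spread between libraries. miR-548z, at 210, 221 and 255 CPM in Con and 230, 225 and 255 in Ang, overlapped both. The 13 leading members held 90.1% of the family's cell counts, and the other 68 averaged at most 24.7 CPM. The median member stood at 7.43 CPM in cells, against 30.7 for the median of the names outside the family. For most names of the family the cell libraries therefore held only a few counts each.

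**Figure D2:**
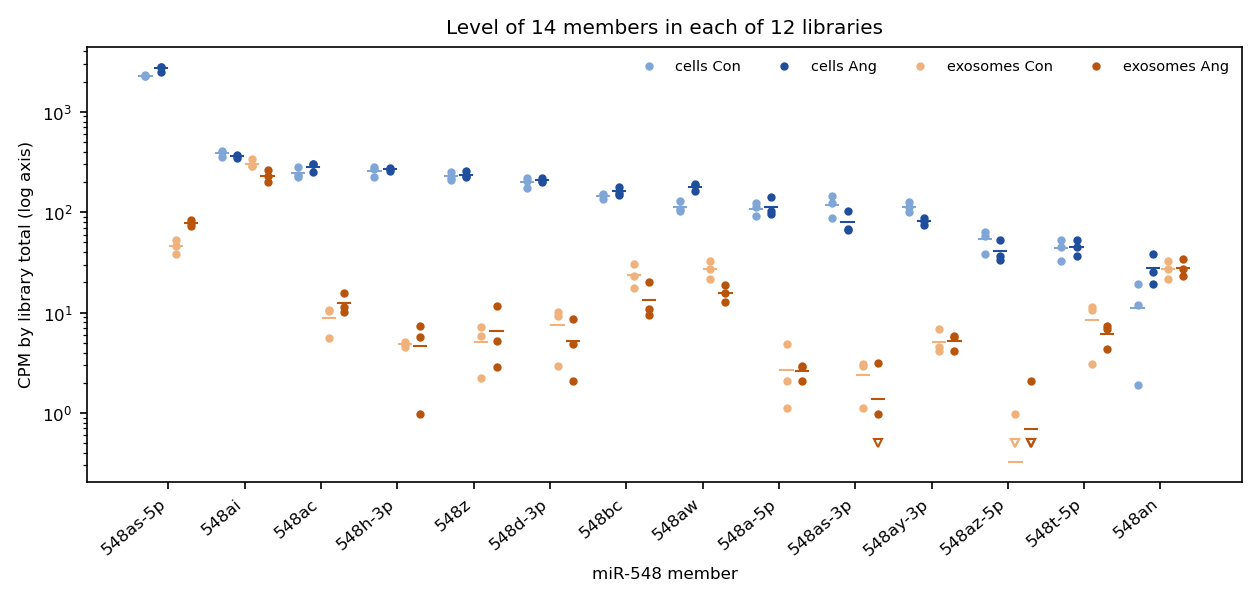
CPM by library total (log y axis) of the 13 leading members in cells and of miR-548an (x axis); points are libraries, bars are means of 3, colours are the 4 groups, and open triangles at the foot mark libraries with 0 counts. miR-548as-5p stands at 2280 to 2818 CPM in cells and 38.3 to 83.1 in exosomes, while miR-548ai stands at 345 to 410 CPM in cells and 201 to 338 in exosomes; on TMM scaling miR-548ai was higher in exosomes, and on library totals lower.

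Both arms were listed for 28 hairpin names, and the arm that led differed between them. In cells the 3p arm had more counts in 17 and the 5p arm in 11. miR-548as was led by its 5p arm, with 7240 against 282 counts over the 6 cell libraries, as was miR-548a with 320 against 38. miR-548h had 8 counts on its 5p and 757 on its 3p arm, miR-548d had 7 and 586, and miR-548ay had 7 and 280. The 5p to 3p ratio of miR-548as was 26.2, 18.4 and 16.2 in cells Con and 41.8, 24.2 and 41.3 in cells Ang. The second Ang library fell within the Con range, so the groups overlapped.

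MIR548C and MIR548Z lie on opposite strands of the same stretch of chromosome 12, chr12:64622509-64622605. miR-548z, from the minus strand, had 670 cell counts, against 40 for miR-548c-3p and 5 for miR-548c-5p from the plus strand. MIR548AA2 and MIR548D2 share a place on chromosome 17 in the same way. There miR-548d-3p had 586 cell counts and miR-548aa 25. Both names also have a second pair of hairpins elsewhere, and counts do not say which copy gave them. At both places the names of the minus strand held most counts. Whether strand was used in counting is not given in the sources used here.

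In exosomes the family held a far smaller share, and its leading name was miR-548ai. The share of UMIs was 0.0485, 0.0540 and 0.0481% in Con and 0.0465, 0.0413 and 0.0454% in Ang. The mean share in cells was 9.52 times that in exosomes in Con and 11.98 times in Ang. Without miR-548as-5p these ratios were 5.43 and 7.12, and without both it and miR-548ai they were 13.8 and 16.7. All these ratios use library totals. On that scale the median of all tested names was also lower in exosomes, at log2 -1.79 in Con and -2.21 in Ang. The part of this in the family's share was not tested. miR-548ai made up 48.6 to 62.5% of the family's exosome counts, against 6.35 to 8.30% in cells, and miR-548as-5p 7.08 to 19.0%. The ranges of the 2 compartments did not overlap for either member. In libraries of many cells, fewer cells with a miRNA and less of it per cell cannot be told apart.

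Fewer members were seen at all in exosomes. Each cell library had a count for 66 to 77 of the 81 names and each exosome library for 28 to 32. In percent this was 81.5 to 95.1 in cells and 34.6 to 39.5 in exosomes. The exosome libraries had the larger UMI totals. By these totals the median tested name was lower in exosomes, at log2 -1.79 in Con and -2.21 in Ang. Larger totals thus need not mean more counts for most names. Of the other names, 97.8 to 98.9% had a count in cells and 82.2 to 88.5% in exosomes. The members' median in cells was also lower, 7.43 against 30.7 CPM, and the part of this in their detection was not tested. The exosome tables list 56 of the members. The 25 others, 30.9% of the family against 1.98% of the other names, were taken as 0 in every exosome library. They had 326 counts in all over the 6 cell libraries, never more than 10 in 1 library, with means of 0.786 to 14.5 CPM. The most abundant of them was miR-548aq-5p, with 10, 7 and 6 counts in cells Con and 9, 5 and 5 in cells Ang. Its 23 counts in cells Con make it at least 1.76-fold lower in exosomes Con, against a floor of 3 counts per library on the scale of the test. By library totals, 80 of 81 members, or 98.8%, had a lower mean CPM in exosomes than in cells, as did 82.8% of the other names. The exception was miR-548an.

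**Figure D3:**
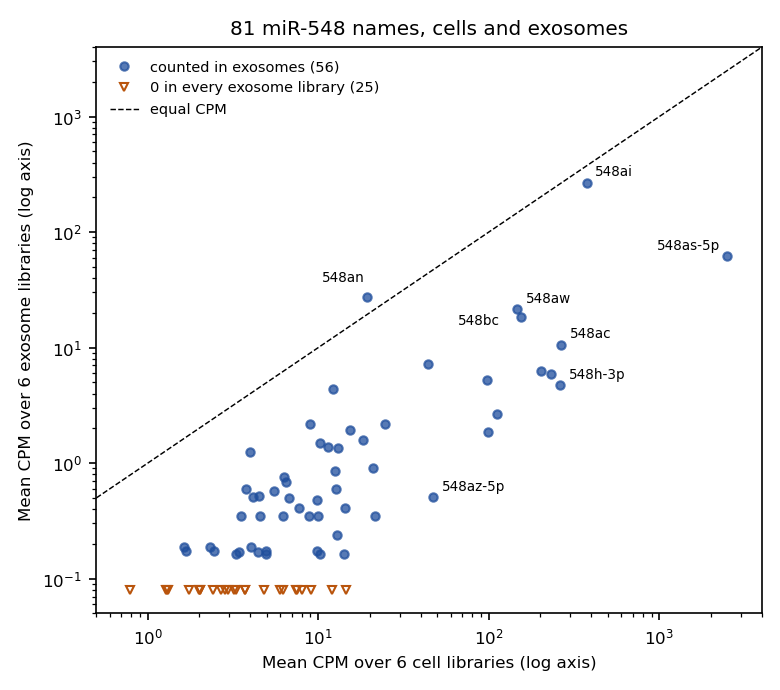
Mean CPM over 6 exosome libraries against mean CPM over 6 cell libraries (both log axes) for the 81 names; open triangles at the foot are the 25 names at 0 in every exosome library, and the dashed line marks equal CPM by library totals. Of all names, miR-548an alone lies above the line, and miR-548ai lies nearest below it at 374.2 CPM in cells and 268 in exosomes; on TMM scaling both were higher in exosomes.

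Exosomes were then compared with cells by a test that scales libraries with TMM factors, which set the bulk of names level. In Con, 15 members passed the count filter. Of these, 12 were lower and 2 higher in exosomes at an adjusted p under 0.05. Of all 1710 names tested, 83.3% passed, 44.2% as lower and 39.2% as higher. In Ang, 17 passed the filter, and 15 were lower and 2 higher, where 83.3% of 1627 names passed, 45.1% as lower and 38.2% as higher. The median log2 difference of the tested members was -3.26 in Con and -2.59 in Ang, beside -0.27 and -0.31 over all tested names. Names could pass the filter through cell counts alone, and for these a lower value in exosomes was partly set by it. For Ang against Con in exosomes, 6 members passed the filter. Scaling by library totals alone moved the median of all names by -1.52 in Con and -1.89 in Ang. Relative to the median of all names, the members' median stood at -2.99 in Con and -2.28 in Ang under TMM, and at -2.99 and -2.28 with library totals. A change of scaling moves all names nearly alike, so this equality is no test of the difference.

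miR-548as-5p read 46.6, 38.3 and 52.5 CPM in exosomes Con, against 2280, 2285 and 2337 in cells Con. The groups lay far apart. On TMM scaling it was 17.5-fold lower in exosomes (log2 -4.13, SE 0.113, edgeR adjusted p = 8.78e-11), and by library totals the pooled counts differed 49.9-fold. In Ang it was 9.33-fold lower (log2 -3.22, SE 0.109, edgeR adjusted p = 2.45e-14). Its opposite arm miR-548as-3p was also lower, at 2.91, 1.13 and 3.09 CPM in exosomes Con against 87.0, 124 and 143.9 in cells Con (log2 -4.02, SE 0.402). In exosomes Ang it had 0, 3 and 1 counts.

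Of the other members abundant in cells, 5 besides miR-548as-5p were much lower in exosomes, without overlap, whereas miR-548ai was called higher on TMM scaling. miR-548h-3p had 5, 4 and 5 counts in exosomes Con, or 4.85, 4.50 and 5.15 CPM, and 4, 7 and 1 counts in exosomes Ang. Its log2 difference was -4.19 (SE 0.222) in Con and -3.98 (SE 0.304) in Ang. miR-548z differed by log2 -3.91 and -3.17, miR-548ac by -3.26 and -2.59, miR-548d-3p by -3.24 and -3.50, and miR-548a-5p by -3.72 and -3.52, in Con and Ang in turn. These 5 members all passed the test in both conditions.

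miR-548az-5p had 78 counts in cells Con and 1 in exosomes Con. The pooled ratio on TMM sizes was 53.7, with a 95% counting interval of 9.35 to 2147. In Ang it had 57 and 2 counts, for a ratio of 14.6 (3.85 to 123). miR-548m had 34 counts in cells Con and 0 in exosomes Con, which makes it at least 2.60-fold lower there, and miR-548j-3p had 34 counts in cells Ang and 0 in exosomes Ang, at least 1.93-fold lower, both against 3 counts per library. All 3 passed the test where named, but the size of each difference is poorly bounded. With so few exosome counts they passed the filter through their cell counts, so the lower call was partly set by it.

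miR-548bc and miR-548aw were lower in exosomes by less. miR-548bc read 23.3, 30.4 and 17.5 CPM in exosomes Con and 153, 149 and 137 in cells Con (log2 -1.12, SE 0.191, edgeR adjusted p = 0.000259). miR-548aw read 27.2, 32.6 and 21.6 CPM in exosomes Con and 104, 107 and 130 in cells Con (log2 -0.54, SE 0.195, edgeR adjusted p = 0.0241). The call for miR-548aw in Con was lost without cells Con 2, at log2 -0.54, and without cells Con 3, at log2 -0.42. It was also lost with DESeq2 and with a replicate block, and 9 of 13 alternatives kept it. In Ang it differed by log2 -1.66 (SE 0.206) and miR-548bc by -1.77 (SE 0.243).

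miR-548ai and miR-548an were the members called higher in exosomes. miR-548ai read 288, 338 and 290 CPM in exosomes Con against 359, 395 and 410 in cells Con, and 263, 201 and 230 CPM in exosomes Ang against 345, 365 and 370 in cells Ang. By CPM its exosome libraries all lay below its cell libraries. On TMM scaling it was 2.25-fold higher in exosomes Con (log2 1.17, SE 0.106, edgeR adjusted p = 1.84e-06) and 2.37-fold higher in Ang (log2 1.25, SE 0.133, edgeR adjusted p = 1.63e-07), whereas with library totals it was lower, at log2 -0.35 and -0.66. Its share of the family's own counts, which no scaling changes, was higher in every exosome library than in any cell library.

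miR-548an had few counts in cells, 1, 10 and 5 in Con and 19, 8 and 13 in Ang. In exosomes it had 28, 29 and 21 counts in Con and 16, 26 and 35 in Ang. This came to 27.2, 32.6 and 21.6 CPM in exosomes Con against 1.89, 19.4 and 11.8 in cells Con, without overlap. In Ang it came to 23.0, 27.2 and 34.2 CPM in exosomes against 38.7, 19.3 and 25.3 in cells, with overlap. On TMM scaling it was 6.92-fold higher in exosomes Con (log2 2.79, SE 0.434) and 3.73-fold higher in Ang (log2 1.90, SE 0.276), while with library totals the Ang difference was log2 0.012 and was not called.

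miR-570-5p and miR-548ai were counted under separate names although their mature sequences are the same. Over all 12 libraries miR-548ai had 2567 counts and miR-570-5p 2571, so that miR-548ai held 49.96% (95% exact binomial interval 48.6 to 51.3%). The interval held 50% in each of the 12 libraries. The level of either name alone cannot be assigned to the MIR548AI locus on chromosome 6 or to the MIR570 locus on chromosome 3. With the 2 names summed, miR-548ai kept its direction in each of the 4 comparisons of 2 groups.

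**Figure D4:**
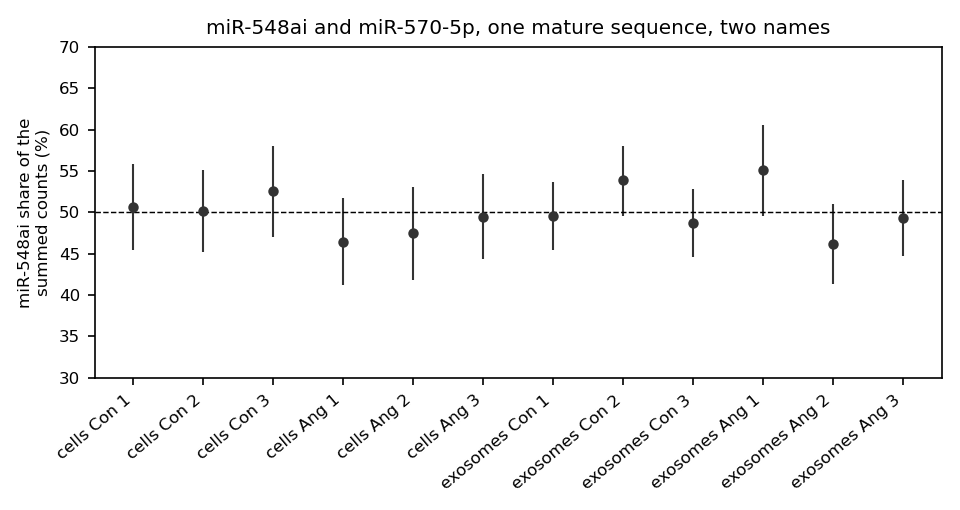
Share (%) of miR-548ai in the summed counts of miR-548ai and miR-570-5p in each library (x axis), with 95% exact binomial intervals; the dashed line marks 50%. All 12 intervals hold 50%.

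In cells, Ang was compared with Con over 17 tested members. One was higher, miR-548aw, and 0 were lower at an adjusted p under 0.05, where 6.56% of 1630 names passed, 2.76% as higher and 3.80% as lower. DESeq2 also called 0 members lower, against 64 of all 2656 names fitted. By unadjusted p, 4 members were under 0.05, 2 in each direction. miR-548aw read 104, 107 and 130 CPM in Con and 186, 164 and 189 in Ang. Every Ang library lay above every Con library, and the difference was 1.58-fold (log2 0.66, SE 0.141, edgeR adjusted p = 0.00859). Without cells Con 2 it was log2 0.61 and the call was lost (edgeR adjusted p = 0.0644), while without cells Ang 2, the library high in blood cell and endothelial markers, the call was kept.

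miR-548as-5p read 2280, 2285 and 2337 CPM in cells Con and 2809, 2517 and 2818 in cells Ang. The groups did not overlap, but the difference, log2 0.22 (SE 0.066), missed the threshold with an edgeR adjusted p of 0.0548. Without cells Ang 2 it was log2 0.27 with an edgeR adjusted p of 0.0420. miR-548as-3p, the opposite arm, read 87.0, 124 and 143.9 CPM in Con and 67.3, 104 and 68.2 in Ang (log2 -0.58, SE 0.211, edgeR adjusted p = 0.123). miR-548ay-3p read 112, 101 and 127 CPM in Con and 75.4, 87.1 and 81.9 in Ang, without overlap (log2 -0.48, SE 0.162, edgeR adjusted p = 0.0947). The other 13 tested members differed by log2 -0.41 to 0.70 with edgeR adjusted p of 0.435 or more.

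In exosomes, Ang was compared with Con over the 6 members that passed the filter. One was higher, miR-548as-5p, and 0 were lower, where 34.0% of 1199 names passed, 16.9% as higher and 17.1% as lower. DESeq2 also called 0 members lower, against 118 of all 2580 names fitted. By unadjusted p, 2 members were under 0.05, 1 in each direction. miR-548as-5p read 46.6, 38.3 and 52.5 CPM in Con and 73.2, 78.3 and 83.1 in Ang. The groups did not overlap, and the difference was 1.91-fold (log2 0.94, SE 0.154, edgeR adjusted p = 0.00102). It stayed past the threshold in all 13 alternatives run, at log2 0.77 to 1.01. The 6 blood cell markers summed to 532 to 1253 CPM in exosomes Con and 339 to 625 in exosomes Ang. Most of each sum was miR-223-3p. miR-451a, the main marker of red blood cells, read 9.71, 92.3 and 128 CPM in exosomes Con and 0, 23.0 and 6.85 in exosomes Ang, and miR-144-3p was at 0 in 4 of these 6 libraries. Their part in the result was not tested. Without exosomes Con 1, the lowest of the exosomes Con libraries in this sum, the call was kept.

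The other 5 exosome members did not pass. miR-548aw read 27.2, 32.6 and 21.6 CPM in Con and 18.7, 15.7 and 12.7 in Ang, without overlap (log2 -0.65, SE 0.251, edgeR adjusted p = 0.0747). Without exosomes Con 3 it was log2 -0.81 and passed (edgeR adjusted p = 0.0435). miR-548bc read 23.3, 30.4 and 17.5 CPM in Con and 20.1, 9.40 and 10.8 in Ang, with overlap (log2 -0.72, SE 0.335). miR-548ac differed by log2 0.65 (SE 0.339) and miR-548an by 0.24 (SE 0.232). miR-548ai, at 288, 338 and 290 CPM in Con and 263, 201 and 230 in Ang, did not overlap and differed by log2 -0.24 (SE 0.127, edgeR adjusted p = 0.178). With library totals, which moved the median of all names by -0.17, both miR-548ai, at log2 -0.41, and miR-548aw, at log2 -0.81, passed as lower.

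**Figure D5:**
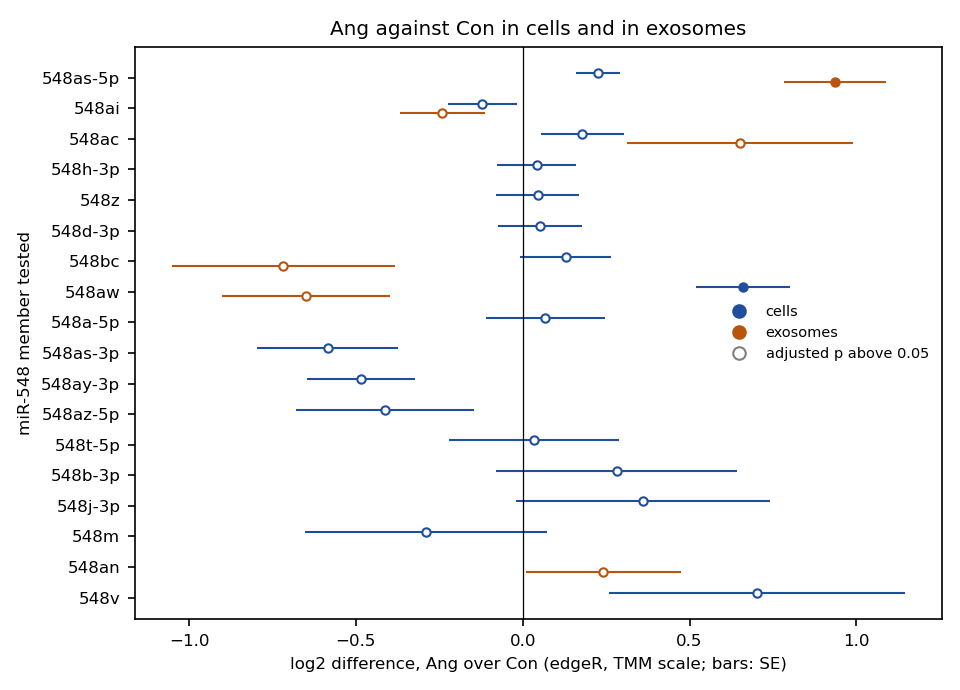
Log2 difference of Ang over Con (x axis, edgeR with TMM scaling, bars are SE) for each member tested (y axis, ordered by level in cells), in cells and in exosomes; filled points have an adjusted p under 0.05. miR-548aw in cells, at 0.66, and miR-548as-5p in exosomes, at 0.94, are the filled points, and miR-548aw lies on the other side of 0 in exosomes, at -0.65.

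Whether the Ang difference itself differed between compartments was tested as an interaction over the 12 libraries, the change in exosomes minus that in cells. Of 18 members tested, 2 had a higher and 1 a lower change in exosomes, where 15.1% of 1835 names passed, 9.97% as higher and 5.18% as lower. For miR-548as-5p the change was larger in exosomes by log2 0.85 (SE 0.154, edgeR adjusted p = 0.000751). For miR-548aw it was lower in exosomes by log2 -1.17 (SE 0.273, edgeR adjusted p = 0.00612): its Ang libraries all lay above the Con libraries in cells and all below them in exosomes. Both stayed past the threshold in all 19 alternatives run. These 2 members were thus unlike each other, although both were among the 8 most abundant of the family in cells and the 5 most abundant in exosomes.

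The third member called in the interaction was miR-548m. It had 11, 16 and 7 counts in cells Con, 12, 6 and 9 in cells Ang, 0, 0 and 0 in exosomes Con and 1, 2 and 2 in exosomes Ang. The fitted log2 of 4.78 (SE 1.47, edgeR adjusted p = 0.0395) sets 5 counts against 0 and is no bound on the change. The call was lost when any of 10 of the 12 libraries was left out, those other than cells Con 3 and cells Ang 1, with edgeR adjusted p up to 0.0849. At this depth a change of miR-548m in exosomes could not be measured.

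Other names described as derived from transposable elements were listed for comparison. Of 5 names ascribed to MADE1 outside the family, miR-570-5p alone passed the count filter in the comparisons of 2 groups. Its mature sequence is that of miR-548ai, so its values are not separate from those of that member. On TMM scaling it was higher in exosomes by log2 1.19 in Con and 1.10 in Ang. By library totals miR-570-5p was lower in every exosome library than in every cell library. In CPM it read 350, 393 and 370 in cells Con against 293, 289 and 306 in exosomes Con, and 398, 404 and 378 in cells Ang against 214, 234 and 236 in exosomes Ang. Of 29 names ascribed to other elements, 22 were tested for exosomes against cells in Con. Of these, 18 were lower and 2 higher, with a median log2 of -2.06. Over all tested names 44.2% were lower and 39.2% higher. In Ang, 20 were tested, with 15 lower and 2 higher and a median of -1.30. Over all tested names 45.1% were lower and 38.2% higher. Here too, names could pass the filter through cell counts alone. The members' medians in the same comparisons were -3.26 and -2.59. For Ang against Con in exosomes 2 of 11 tested were higher and 1 lower, where 16.9% of 1199 names were higher and 17.1% lower. miR-582-5p was higher there by log2 0.87 (SE 0.146) and lower in cells by log2 -0.39 (SE 0.092). miR-652-5p was higher there by log2 0.55 (SE 0.106), and miR-584-5p was lower by log2 -1.24 (SE 0.300).

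Of 6 names outside the family that share a seed with a member, miR-1323, miR-4445-3p, miR-559, miR-570-5p, miR-7161-5p and miR-8054, 4 were tested for Ang against Con in cells. miR-7161-5p differed by log2 0.99 (SE 0.323, edgeR adjusted p = 0.0899), miR-8054 by 0.46, miR-4445-3p by 0.25 and miR-570-5p by 0.07. In exosomes miR-570-5p alone was tested and differed by log2 -0.21 (SE 0.089, edgeR adjusted p = 0.0979). No adjusted p passed the threshold, and by unadjusted p miR-7161-5p in cells and miR-570-5p in exosomes were under 0.05.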

How the data were processed

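The deposited values are whole-number UMI counts for each mature miRNA name, with no normalization, per the file headers. Per the submitters' processing notes, cutadapt and GRCh38 were used. Not given in the sources used here were the aligner, miRNA annotation, counting program and handling of reads with several matches. Cell RNA came from the miRNeasy Micro kit, exosome RNA from the exoRNeasy Maxi kit, and libraries from the QIAseq miRNA kit, per the labels' protocols. Names absent from the exosome tables were set to 0.

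Each comparison was fitted on all names with edgeR 4.0.16 in R 4.3.3 (filterByExpr, TMM, quasi-likelihood test, two-sided, Benjamini-Hochberg over all tested names, threshold 0.05). A comparison of 2 groups used its 6 libraries, and the interaction used 12. Differences are logs to base 2 with SE. CPM used library totals. The fit was checked on simulated counts. Binomial intervals are exact, at 95%.

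The members and lists were chosen with earlier results of these data known. Members named with values were the 5 most abundant in cells and in exosomes, all called in an Ang comparison or the interaction, and up to 8 largest called differences each way between exosomes and cells with a mean of at least 10 CPM. Others were named for contrast after their values were seen. Coordinates and hosts came from GENCODE 29 and sequences from RefSeq. Alternatives were RLE factors, library totals, DESeq2 1.42.0, no count filter, a replicate block, each library left out, identical sequences summed and, chosen after seeing the data, miR-548ai summed with miR-570-5p.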

Additional observations from a re-analysis of the deposited data

Results flagged for a closer look

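Of 18 members tested, 3, or 16.7%, passed in the test of whether the Ang change differed between exosomes and cells (edgeR, Benjamini-Hochberg adjusted). Over all 1835 names tested, 15.1% passed. For miR-548as-5p the change was higher in exosomes by log2 0.85, and for miR-548aw lower by log2 -1.17. For miR-548m the fitted value was log2 4.78, from 0 counts in exosomes Con and 5 in exosomes Ang. Its call was kept in 7 of 18 alternatives, and its change could not be measured at this depth.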

How the results depend on the processing

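For named members, 624 values under an alternative kept their direction and their side of the threshold, 17 lost the call, 6 gained one and 16 turned sign. With library totals, 2 members were lower in Ang exosomes, 1 was higher in exosomes in Con and 0 in Ang, and 2 had a lower interaction. Over all names the same counts were 319 of 1199, 346 of 1710, 294 of 1627 and 222 of 1835. DESeq2 called 24 members lower in exosomes in Con and 1 higher in the interaction. Over all names fitted these were 811 of 2655 and 243 of 2656. Without a count filter, which let more names be tested, 36 members were lower in exosomes in Con and 32 in Ang. Over all names these were 913 of 2655 and 896 of 2654. Leaving out 1 library at a time gave 0 to 1 members lower in Ang exosomes, 0 to 2 higher and 0 to 1 lower in Ang cells, and 1 to 2 higher and 1 to 2 lower in the interaction. Over all names, 138 to 207 of 1240 to 1276 were lower in Ang exosomes. In Ang cells 16 to 40 were higher and 22 to 57 lower, of 1694 to 1732. In the interaction 139 to 194 were higher and 70 to 111 lower, of 1843 to 2041. Without miR-548as-5p the family share was 0.248% for cells Con, 0.260% for cells Ang, 0.0456% for exosomes Con and 0.0365% for exosomes Ang.

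With library totals miR-548ai turned to log2 -0.35 (Con) and -0.66 (Ang) for exosomes against cells. Small differences turned sign when 1 library was left out. In Ang cells miR-548h-3p ran from -0.043 to 0.085 and miR-548z from -0.014 to 0.11. In the interaction miR-548ai ran from -0.092 to 0.094, miR-548h-3p from -0.47 to 0.68 and miR-548z from -0.066 to 0.99. There miR-548ai was also -0.30 with library totals and -0.058 summed with miR-570-5p, and miR-548h-3p was -0.16 with library totals. The cause of these was not tested.

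No pairing by replicate number was seen: same-number correlations of deviations ran from -0.053 to 0.12, and 5 of 12 were the highest for their number. Such values cannot show whether equal numbers came from the same culture. With a replicate block, 1 member was lower in Ang cells, 11 were lower in exosomes in Con, where the call for miR-548aw was lost at log2 -0.54, and 1 was higher in the interaction, where that for miR-548m was lost at log2 4.76. Over all names these were 70 of 1630, 741 of 1710 and 166 of 1835. Low counts limited the tests: for Ang against Con, 6 of 81 members passed the filter in exosomes and 17 in cells.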

Other observations

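GC content went with the exosome to cell difference over all names. Across 1536 tested names with a sequence in Con, Spearman's rho between GC percent and the log2 difference was 0.58 and Pearson's r 0.56. In Ang they were 0.58 and 0.56 over 1461 names. Leaving out the miR-548 members gave a rho of 0.58 in both. These names share the same libraries and are not independent, so the values describe the libraries only, and the part of GC content in the levels of the miR-548 family was not tested.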
